A study of Mus musculus with 2 samples.

Results

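Small nucleolar RNAs (snoRNAs) and other short noncoding RNAs were compared between mouse hepatoblasts that overexpressed Srf and control hepatoblasts that expressed EGFP. The members are the genes named by exactly 1 gene symbol of the array's annotation that begins with Snora, Snord, Scarna, Rnu or Rny, the last 2 followed by a digit. This rule took 87 probe sets of 84 genes, out of 23521 probe sets of 22180 genes with 1 symbol. It gave 26 Snora genes, 47 Snord genes, 5 Scarna genes, 2 Y RNA genes (Rny) and 4 U RNA genes (Rnu). Genes that lay under the 20th percentile of signal on both arrays were not compared, which left 82 members among 19261 genes. The 2 members left out, Rnu5g and Snord90, had log2 signals of 4.35 and 4.59 on the Srf array and 4.41 and 4.68 on the EGFP array, near the lowest value in the table.

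The hepatoblasts, the shared progenitors of hepatocytes and bile duct cells, came from primary culture of fetal mouse liver and grew in medium with serum, insulin, dexamethasone, nicotinamide, HGF and EGF. The Srf group received Srf and the EGFP group received EGFP, each by retrovirus per the labels, and there was 1 array per group. The methods of the study trace its hepatoblast line to clonal expansion from Nanog-GFP reporter mice, and name a further derivative with inducible reprogramming factors, without saying which of them gave these RNAs. With 1 culture per group there is no spread between replicates, no difference could be tested, and all differences describe these 2 arrays. A rough scale for probe error comes from the 865 genes with 2 probe sets, whose differences scattered with an SD of 0.20 on the log2 scale, where 1 unit is 2-fold. That SD measures disagreement of probes and not of cultures. It was taken over genes of all kinds and not over short RNAs, of which all members but 3 had a single probe set.

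A snoRNA is a short guide that pairs with another RNA and carries an enzyme to it. C/D snoRNAs (Snord) form a particle with the methyltransferase fibrillarin and place methyl groups on ribosomal RNA, and H/ACA snoRNAs (Snora) form a particle with the pseudouridine synthase dyskerin and convert uridine to pseudouridine. A few members of each class take part in the cutting or folding of precursor ribosomal RNA instead. Cajal body RNAs (Scarna) guide the same reactions on the RNAs of the spliceosome, which are U RNAs. The U RNA genes taken here also include Rnu3a, whose U3 RNA works on precursor ribosomal RNA instead. Y RNAs are made by RNA polymerase III and are bound by the proteins Ro60 and La. In mammals most snoRNAs are not made from genes of their own, but are cut from the introns of host genes, many of which encode ribosomal proteins or noncoding RNAs of the Snhg family. Growing cells need snoRNAs to build ribosomes.

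RNA was extracted on columns that keep long RNA better than short RNA. Probes placed inside an intron can also read the host's precursor, so finished snoRNA and precursor cannot be told apart in these values. Lengths in RefSeq ran from 48 to 248 nucleotides for the members compared, with a median of 87.5. All members but 3 had a single probe set.

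The annotated starts of host genes are printed because snoRNAs of the same host share them, and the members of a host differed in these data. Of 11 hosts with several members, 10 were in RefSeq's table of promoters (GRCm38.p6). The windows of 6 are given, with 15 bases before the annotated start and 15 from it on. Capitals mark a run of at least 5 pyrimidines (C or T) that opens with C within 5 bases of the start. Runs of this kind at the first base are the hallmark of genes whose translation follows growth signals, to which many snoRNA hosts belong.
Snhg12, chr4:132308663-132308692, plus strand: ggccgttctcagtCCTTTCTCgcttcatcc
2410006H16Rik, chr11:62602862-62602891, plus strand: tcacgcgccgtCTTTCTCTgcggccatcat
Snhg3, chr4:132353672-132353701, minus strand: tagtcgaccacgcctgaCTTCCgggcgtta
Nop58, chr1:59684991-59685020, plus strand: tatttgctgctccacgaggagaggtgtgga
Gnl3, chr14:31019117-31019146, minus strand: cgtaaatccaacctgtggccgccaggcgag
Kansl2, chr15:98534255-98534284, minus strand: gagcagccagagggcaagctgcgcggtgcc
Of the 10 hosts, these 3 noncoding ones held such a run, and Nop58, Gnl3 and Kansl2 are shown as protein hosts without it. Of 44 promoters of the 41 hosts of any member found in the table, 14 (31.8%) held one, against 17.1% of all 32851 promoters in it. The CArG box, the sequence that Srf binds, was searched on both strands over 300 bases (250 before the start), and it was found in 0 of the 44 host promoters and in 1.63% of all promoters. These are matches of letters only.

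The array of the Srf cells carried more Srf signal, in the direction of its label, with Srf at 12.15 on the Srf array and 8.57 on the EGFP array (12.0-fold higher). Introduced Srf and the cells' own Srf cannot be told apart in it. Acta2, a known Srf target that encodes smooth muscle actin, was at 10.73 on the Srf array and 7.46 on the EGFP array. Hepatoblast keratins were bright, with Krt8 at 12.42 on the Srf array and 12.29 on the EGFP array, and Alb at 9.17 and 9.48 in the same order, while Dlk1 was at 6.04 and 6.18, near the array medians of 5.84 for Srf and 5.88 for EGFP. Of 13 hepatoblast markers 1, Afp, was at least 1.5-fold higher (1.78-fold), and 2, Epcam and Ttr, were lower (2.20-fold and 1.75-fold). Their median difference was -0.14. Of all genes compared, 1.55% were at least 1.5-fold higher and 1.27% at least 1.5-fold lower. Of 9 mesothelial markers 7 lay above 0, with a median of 0.45 and a range from -0.25 to 1.96. The 2 that were at least 1.5-fold higher were Upk1b (3.89-fold) and Krt14 (1.77-fold). Msln, another mesothelial marker, was at 11.93 on the Srf array and 11.46 on the EGFP array. Of 7 stellate markers 1, Pdgfrb, was lower (2.11-fold), with a median of -0.03. Of 6 endothelial and 5 erythroid and white blood markers 0 passed 1.5-fold, with medians of -0.08 and -0.13. The part of these cells in the results on short RNAs was not tested.

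Short RNAs were more often lower than higher on the Srf array. Most of the lower ones, and most of the members compared, were C/D snoRNAs. Of the 82 members compared, 20 (24.4%) were lower by 1.5-fold or more in Srf cells and 2 were higher by as much. Among all genes compared, 1.27% were at least 1.5-fold lower and 1.55% were at least 1.5-fold higher. The median difference of the members, Srf minus EGFP on the log2 scale, was -0.21, against -0.01 over all genes compared, and 53 members (64.6%) lay below 0, against 52.8% of all genes. At 2-fold, 10 members were lower and 0 were higher, where 0.317% of all genes were lower and 0.343% were higher.

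C/D snoRNAs accounted for 14 of the 20 lower members and for 46 of the 82 members compared. Their median difference was -0.33, 35 of 46 lay below 0, and 14 (30.4%) passed 1.5-fold on the lower side and 0 on the higher. H/ACA snoRNAs went both ways, with 4 of 26 lower and 2 higher by 1.5-fold or more. Their median was 0.04, which stayed above 0 under the 4 other scalings and was -0.03 with the brightest probe set of each gene. Cajal body RNAs had 0 of 5 past 1.5-fold and a median of 0.01, which was -0.01 with the arrays shifted to a common 75th percentile. Of the 3 U RNAs compared, Rnu3a and 2 of the spliceosome, 0 passed 1.5-fold and the median, which is Rnu3a's value, was -0.21. Both Y RNAs were lower. The difference between the classes was not tested.

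**Figure D1:**
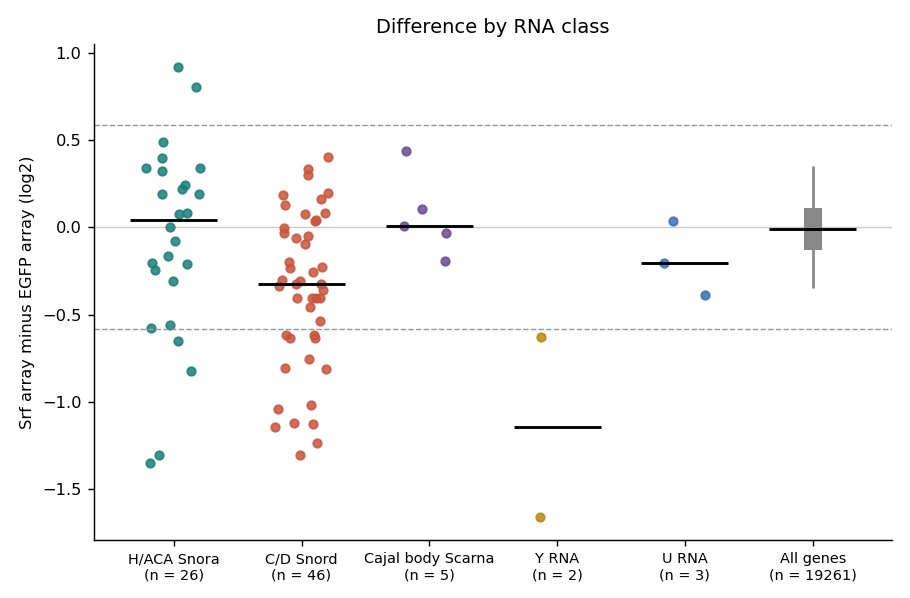
Srf minus EGFP difference (log2, vertical axis) for each short RNA gene compared, by class; black bars are class medians, dashed lines mark 1.5-fold, and the last column shows all genes compared with the box from the 25th to the 75th percentile and the line from the 5th to the 95th. C/D snoRNAs lie mostly below 0 (median -0.33), H/ACA snoRNAs on both sides (median 0.04), and both Y RNAs below the lower dashed line.

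The lower members were bright ones. All 20 were among the 63 members whose mean log2 signal reached the 75th percentile of all probe sets (7.57). Above that level 31.7% of members were at least 1.5-fold lower, against 2.04% of all genes compared there, and 1 member was higher, against 2.41% of all genes. The median difference above that level was -0.31 for members and 0.04 for all genes. The 19 dimmer members had a median of 0.00, with 0 lower and 1 higher by 1.5-fold. Among bright members the class medians kept the same order, at -0.36 for 37 C/D snoRNAs and -0.21 for 17 H/ACA snoRNAs. They lay closer together than over members of all levels, where they were -0.33 and 0.04. Lower by at least 1.5-fold were 37.8% of these C/D and 23.5% of these H/ACA snoRNAs. Over the 82 members the difference ran against the level with Pearson's r of -0.34 and Spearman's rho of -0.35, given as a description because all points share the same 2 arrays and the level is the mean of the values that make the difference. Length showed little relation, with r of 0.06 over all members and -0.19 over the 46 C/D snoRNAs. These lengths span only 48 to 248 nucleotides. The part of short RNA recovery on the columns in these differences was not tested.

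**Figure D2:**
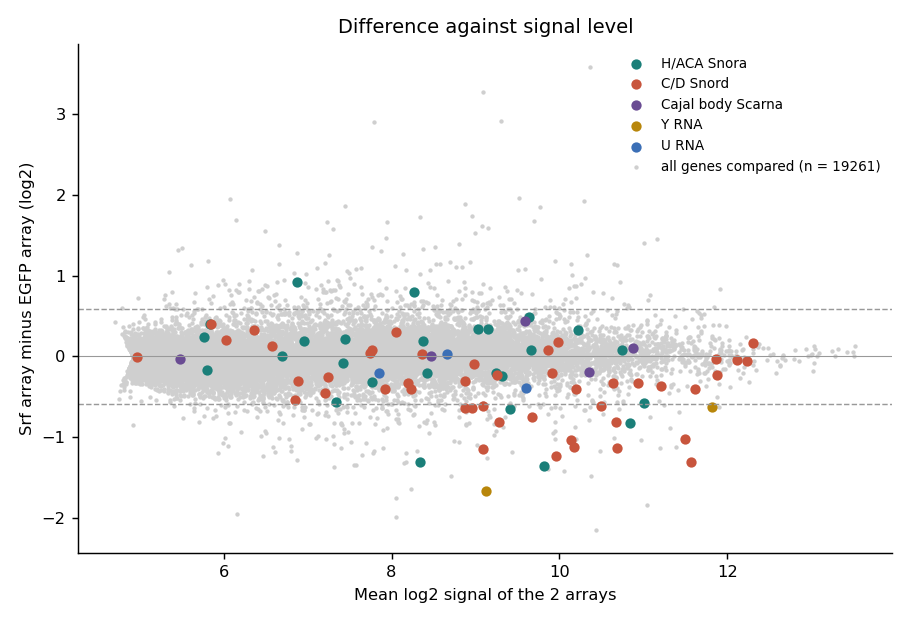
Srf minus EGFP difference (log2) against the mean log2 signal of the 2 arrays, with short RNA genes coloured by class over all 19261 genes compared in grey; dashed lines mark 1.5-fold. Every member below the lower dashed line has a mean signal above 7.57.

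The largest difference among the members was that of a Y RNA. Rny3 had a log2 signal of 8.29 on the Srf array and 9.95 on the EGFP array, 3.16-fold lower. Rny1 was at 11.50 on the Srf array and 12.13 on the EGFP array, 1.55-fold lower. Both are transcribed from genes of their own, close to each other on chromosome 6, and no host was found for either. Of their protein partners, Ro60, which encodes the Ro protein, differed by -0.16 and Ssb, which encodes La, by 0.18. Vaultrc5, the RNA of the vault particle, was 1.66-fold lower, at 5.54 on the Srf array and 6.28 on the EGFP array, where it was dim. It was the 1 gene past 1.5-fold among 12 genes listed for Y RNA partners and related short RNAs, whose median was 0.02. Most of these genes encode proteins. The other RNA genes among them, Rpph1 and Rn7sk, differed by -0.34 and 0.06.

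Among H/ACA snoRNAs, Snora34 was at 9.14 on the Srf array and 10.49 on the EGFP array (2.55-fold lower). Snora15 was at 7.69 on the Srf array and 8.99 on the EGFP array (2.47-fold lower). Snora16a was at 10.43 and 11.25 in the same order, and Snora68 at 9.09 and 9.74. These guides of pseudouridylation sit in 4 different hosts. The 2 members that were higher on the Srf array are H/ACA snoRNAs too. Snora75 was at 7.34 on the Srf array and 6.42 on the EGFP array (1.89-fold higher), and Snora44 was at 8.67 and 7.87 (1.74-fold higher). Just under 1.5-fold on the higher side came Snora78, with a difference of 0.49.

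The C/D snoRNA with the largest difference was Snord22, which in frog oocytes is needed to mature the RNA of the small ribosomal subunit. It had 10.92 on the Srf array against 12.22 on the EGFP array (2.47-fold lower). Snord42b, inside the gene of the ribosomal protein Rpl23a, was at 9.35 on the Srf array and 10.58 on the EGFP array (2.36-fold lower). A group of 5 C/D snoRNAs had differences from -1.15 to -1.02, and it held Snord11, Snord16a, Snord65, Snord58b and Snord99. Snord11 was at 8.52 on the Srf array and 9.66 on the EGFP array, and Snord16a, from a ribosomal protein gene (Rpl4), at 10.12 and 11.25 in the same order. Snord65 was at 9.62 on the Srf array and 10.74 on the EGFP array, and Snord58b, from Rpl17, at 9.62 and 10.66. The remaining 7 lower C/D snoRNAs, Snord49a, Snord72, Snord69, Snord17, Snord73a, Snord35b and Snord1b, had differences from -0.82 to -0.62. Among them Snord49a was at 10.26 on the Srf array and 11.08 on the EGFP array, Snord1b at 10.19 and 10.80 in the same order, and Snord17 at 8.56 on the Srf array and 9.19 on the EGFP array.

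C/D snoRNAs with very high signals were not uniformly lower. Snord87 was at 12.21 on the Srf array and 12.27 on the EGFP array, Snord110 at 12.09 and 12.14, Snord47 at 11.85 and 11.88, and Snord82 at 12.38 and 12.22. These 4 differed by no more than 0.16 either way. The highest difference of a C/D snoRNA was that of Snord91a, 0.40 at a dim level (6.05 on the Srf array and 5.65 on the EGFP array). The 3 members that passed 1.5-fold on the lower side by the least were Rny1, Snord35b and Snord1b, with differences of -0.63, -0.62 and -0.62. The 3 that came nearest without passing were Snora21, Snora28 and Snord118, with -0.57, -0.56 and -0.54. The counts at 1.5-fold therefore part values that differ by less than the SD between probe sets of a gene.

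**Figure D3:**
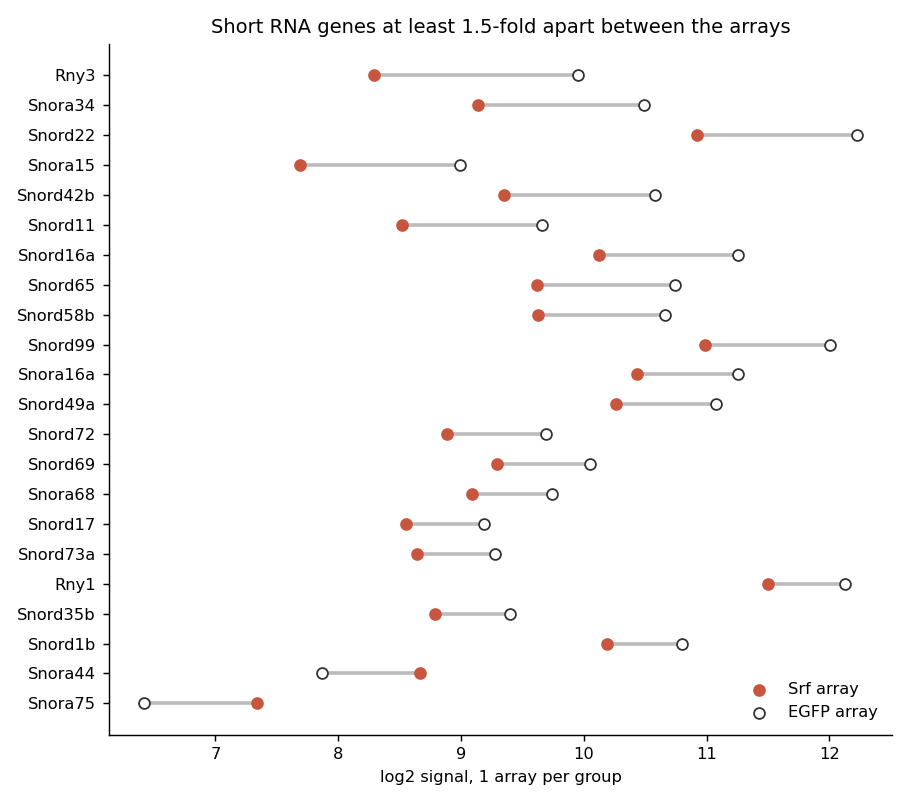
Log2 signal on the Srf array (filled) and on the EGFP array (open) for the 22 short RNA genes at least 1.5-fold apart, ordered from the lowest difference (Rny3, 3.16-fold lower) at the top to the highest (Snora75, 1.89-fold higher) at the bottom. In 20 genes the Srf array lies to the left of the EGFP array.

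Other RNAs known from the processing of precursor ribosomal RNA differed by less than 1.5-fold. Snord118 (U8), needed for the RNA of the large subunit, was at 6.58 on the Srf array and 7.12 on the EGFP array, a difference of -0.54. Rnu3a, a copy of the U3 RNA that takes part in early cleavage of the precursor, differed by -0.21. Snora73a and Snora73b, near-identical copies of the U17 RNA, differed by -0.21 and -0.24. Their probe sets may read each other's RNA. Snord13 (U13), which guides acetylation of the RNA of the small subunit, differed by -0.41. Of the RNAs of the minor spliceosome, Rnu11 differed by -0.39 and Rnu12 by 0.04. Among Cajal body RNAs, Scarna2 was highest (0.44) and Scarna10 lowest (-0.19), while Scarna6, Scarna8 and Scarna17 differed by 0.01, -0.03 and 0.10.

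Members with more than 1 probe set show how far probes of a gene agreed. The 2 probe sets of Scarna17 gave 0.10 and 0.11, and those of Snora19 gave 0.24 each. The 2 of Snora33 gave -0.06 at a signal of 13.30 on the Srf array and 0.21 at 8.26, so its mean of 0.08 joins probe sets of opposite sign.

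Members whose symbols differ only by a last letter, which mark copies or neighbours of a kind, formed 5 pairs. Snord35a and Snord35b differed by -0.36 and -0.62, Snord49a and Snord49b by -0.82 and -0.23, and Snord73a and Snord73b by -0.63 and -0.33. Snord88a and Snord88c lay on opposite sides of 0, at 0.20 and -0.26. The remaining pair was that of the U17 copies.

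The next question was whether the host genes, whose introns hold the snoRNAs, differed in the same way. Hosts were taken as genes whose span in RefSeq (GRCm38.p6) holds the whole member. The strand of members was not in the table used here, so it was not checked. Of the 82 members compared, 67 lay in 1 host, 6 lay inside several genes and were left out, and for 9 no host was found. The host was itself compared for 56 members, in 42 hosts. Of these hosts, 0 passed 1.5-fold in either direction, which in 42 genes is near the 1.55% higher and 1.27% lower of all genes compared, with differences from -0.26 to 0.46 and a median of 0.04. The 56 members had a median of -0.20, and 41 of them lay below their host. The median of member minus host was -0.21. Across the 56 pairs the difference of the member and that of its host gave r of 0.12 and rho of 0.16, a description over pairs that share both arrays and in part the host.

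Hosts of the lower members lay on both sides of 0. For the 15 lower members with a compared host, the host's difference ran from -0.23 to 0.46 and was above 0 for 8 of them. Snord72 was at 8.88 on the Srf array and 9.69 on the EGFP array, while its host Rpl37, a ribosomal protein gene, differed by 0.46, the highest difference of any host. Snord22 differed by -1.31 and its noncoding host Snhg1 by 0.04. Snora15 differed by -1.31 and its host Cct6a, a chaperonin gene, by 0.18. By kind of host, 18 members in 16 ribosomal protein genes had a median of -0.38 with 7 lower and 0 higher. The 16 members in 10 noncoding hosts had a median of -0.29 with 6 lower and 1 higher, and the 33 members in 27 other protein genes a median of -0.05 with 5 lower and 1 higher. The 9 members with no host found, among them both Y RNAs, had a median of -0.41. Of all members compared 24.4% were lower and 2.44% higher by 1.5-fold, and of all genes compared 1.27% and 1.55%. The kinds of host were not matched for snoRNA class or signal level, and the difference between them was not tested.

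Members of a single host could lie far apart. In 11 hosts with 25 members, the gap between the lowest and the highest member had a median of 0.76 and ran from 0.04 in Snhg3 to 1.82 in Snhg12. In 7 of these hosts the members lay on both sides of 0.

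Snhg12, a noncoding host whose start is printed above, showed the widest gap. The gene itself had 7.66 on the Srf array and 7.66 on the EGFP array. Of its 4 members, Snord99 was at 10.99 on the Srf array and 12.01 on the EGFP array, and Snora16a was at 10.43 and 11.25 in the same order. Snora61 was at 9.20 on the Srf array and 8.86 on the EGFP array, and Snora44 was at 8.67 and 7.87. Within the span of 1 gene, 2 members were thus at least 1.5-fold lower, 1 was at least 1.5-fold higher, and the gene's own probe set differed by 0.00.

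The next gaps were in hosts that encode proteins of the nucleolus or of chromatin. In Kansl2, a subunit gene of a histone acetyltransferase complex, Snora34 differed by -1.35 and Snora2b by 0.19, and the host by 0.15. In Nop58, which encodes a core protein of the C/D particle itself, Snord11 differed by -1.15 and Snord70 by 0.18. Nop58 was at 11.44 on the Srf array and 10.98 on the EGFP array, a difference of 0.45. In Gnl3, which encodes nucleostemin, a GTPase of the nucleolus, Snord69 differed by -0.75 and Snord19 by 0.33, and the host by 0.35.

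In the other 4 hosts the members were alike in sign. The noncoding gene 2410006H16Rik differed by -0.16 and its 3 members Snord65, Snord49a and Snord49b by -1.12, -0.82 and -0.23. In Ncl, which encodes nucleolin, Snora75 differed by 0.92 and Snord82 by 0.16, and the host by 0.20. Rps3a1, a ribosomal protein gene, differed by -0.23 and its members Snord73a and Snord73b by -0.63 and -0.33. In Snhg3 both copies of U17 were below 0, and the host differed by 0.30. Gaps in Wdr43, 2410002F23Rik and Rpl3, whose members lay on both sides of 0, were smaller than in Gnl3, with Snord92 and Snord53 at -0.30 and 0.30 in Wdr43.

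**Figure D4:**
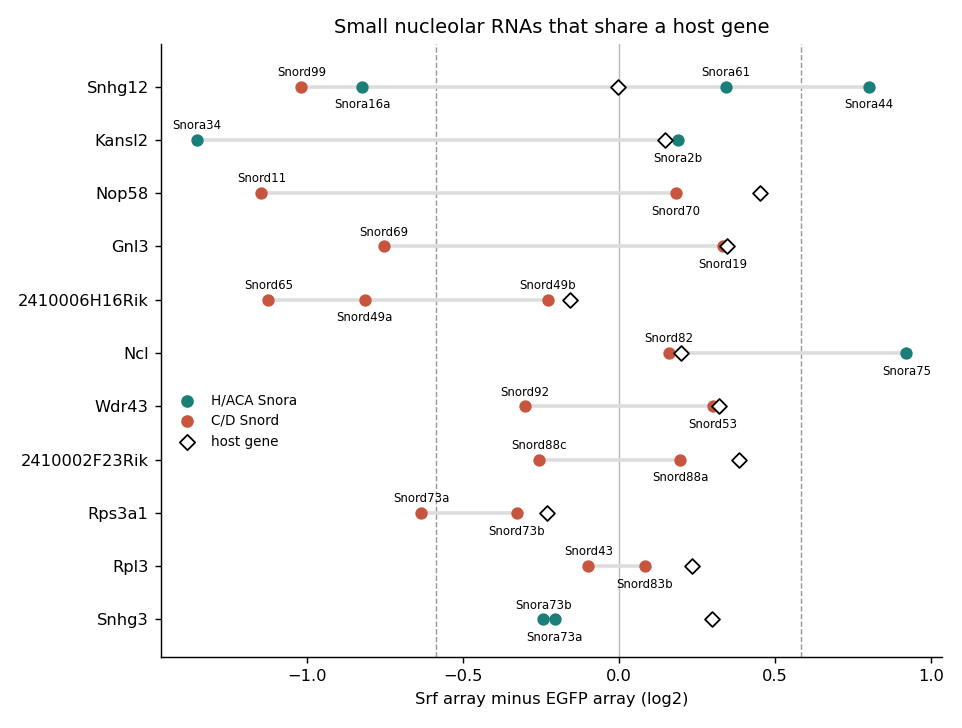
Srf minus EGFP difference (log2, horizontal axis) for each snoRNA (filled, coloured by class) and its host gene (open diamond), for the 11 hosts with several members; dashed lines mark 1.5-fold. Members of a host spread over as much as 1.82 in Snhg12, while every host lies between the dashed lines.

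Lists of genes that make and use snoRNA particles each had a median above 0, by little. The core proteins of the C/D particle that were measured, Nop58, Snu13 and Nop56, differed by 0.45, 0.18 and 0.17. Of the 4 core proteins of the H/ACA particle, Nhp2 differed by 0.42, Dkc1 (dyskerin) by 0.25, and Gar1 and Nop10 by -0.06 each. In the list of 11 assembly factors the median was 0.13 and 0 passed 1.5-fold, with Znhit6, which helps to build the C/D particle, highest at 0.53 and Pih1d1 lowest at -0.17. The list of 12 genes for Cajal bodies and their RNAs had a median of 0.11 and 0 past 1.5-fold. The 28 genes of the U3 processome, the particle that the U3 RNA guides, had a median of 0.23, against -0.01 for all genes compared, and 26 lay above 0. Pwp2 was the 1 of them past 1.5-fold, at 8.86 on the Srf array and 8.23 on the EGFP array (1.54-fold higher). Over these 5 lists together, without the RNA gene Terc, 49 of 57 genes lay above 0 with a median of 0.18, and 1 was at least 1.5-fold higher and 0 lower. Of all genes compared, 9058 of 19261 lay above 0, and of those at or above a mean log2 signal of 7.57, 4003 of 6920 did, with a median of 0.04.

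RNA polymerase I genes and factors of ribosomal DNA had a median of 0.21 over 18 genes, with 15 above 0, 1 higher by 1.5-fold and 0 lower. The gene that passed was Myc, a transcription factor of ribosome production, at 10.92 on the Srf array and 10.13 on the EGFP array (1.72-fold higher), and Rrn3 and Tcof1 followed at 0.46 and 0.40. Of 19 genes of RNA polymerase III, which makes the Y RNAs, the subunit gene Polr3d was 1.62-fold higher and Polr3gl was lower, with a difference of -0.75. Their median was 0.11. The 31 genes of spliceosomal particles had 0 past 1.5-fold and a median of 0.07, from Snrnp35 at -0.40 to Snrnp48 at 0.31. Of 20 genes for transcription and trimming of U RNAs 0 passed 1.5-fold, with a median of 0.03 and Snapc4 highest at 0.43. Genes that free snoRNAs from introns or trim their ends had 0 of 19 past 1.5-fold and a median of 0.08, with Dbr1, which opens the lariat of the cut intron, at 0.35, Zcchc7 at 0.45 and Parn, a nuclease of H/ACA ends, at -0.26. A list of 21 measured snoRNA hosts, most of them long noncoding, had a median of -0.01, and Zfas1, at -0.62, was the 1 past 1.5-fold. This list also held the protein genes Cwf19l1 and Taf1d.

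**Figure D5:**
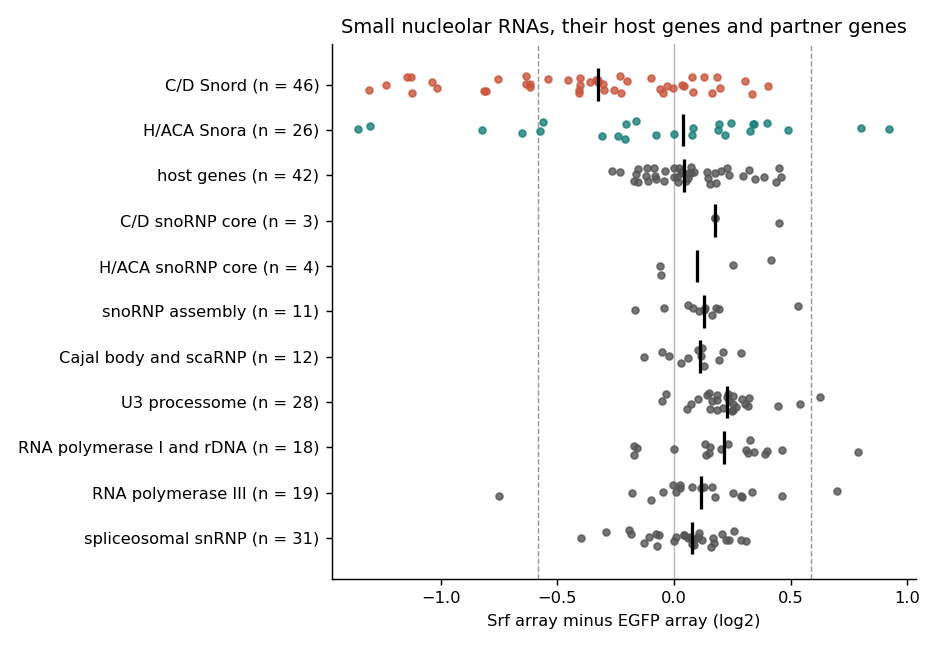
Srf minus EGFP difference (log2, horizontal axis) for snoRNAs of both classes, their 42 compared host genes and 8 lists of partner genes; each point is a gene, black bars are medians and dashed lines mark 1.5-fold. C/D snoRNAs are centred at -0.33, host genes at 0.04 and genes of the U3 processome at 0.23.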

How the data were processed

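Each culture's total RNA was labelled by a whole-transcript method (labels and study methods give unlike kit versions) and read on 1 Affymetrix Gene ST array. Deposited values were read as log2 signals, from 4.28 to 13.63. The authors give no log base, so it was inferred from this range and folds rest on it. GeneSpring with percentile shifts is named in the methods. Probe summarisation: not given in the sources used here.

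Labels set the groups, 1 array for Srf and 1 for EGFP. Of 34351 probe sets, the 23521 with 1 symbol were used, and probe sets of a gene were averaged. The array annotation can be old. All 84 members were found in RefSeq (GRCm38.p6) by Entrez identifier under the same symbol. Differences are Srf minus EGFP, counted at 1.5-fold, the threshold the study used in these cells, with no p-value. Hosts rest on containment alone, since member strands were not in the table used. Every member past 1.5-fold was named, with the highest and lowest of each class, each Y and U RNA, their hosts, listed genes by size and others chosen after their values were seen. Members and lists were chosen with earlier results of these data known. For arrays, their number limits the precision. The counting was tested on the differences of these arrays, shuffled among genes of like level, with known 2-fold shifts added. Python 3.11.15, pandas 2.3.3 and statsmodels 0.14.6 (lowess, span 0.3) were used. Alternatives changed the scaling, the filter on dim genes, the threshold, the choice of probe sets and the members.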

Additional observations from a re-analysis of the deposited data

Results flagged for a closer look

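Probe sets that list several symbols were left out of the comparisons. Averaged over the probe sets with the same symbols, 2 sets of symbols passed 1.5-fold. The probe set shared by Snord12 and its noncoding host Zfas1 had 9.87 on the Srf array and 10.68 on the EGFP array, a difference of -0.81. The probe set shared by Snora81, an H/ACA snoRNA, and its host Eif4a2, a translation initiation factor gene, had 8.21 on the Srf array and 7.60 on the EGFP array, a difference of 0.61. Neither of these 2 probe sets can be given to the snoRNA or to the host alone. Measured where it is the only symbol named, Zfas1 differed by -0.62 (1.53-fold lower).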

How the results depend on the processing

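Across the 4 other scalings, the same 20 members were at least 1.5-fold lower under all but centring each array on its median, which kept 18 of them and brought Snord35b and Snord1b to -0.58; the 2 higher members remained under all 4. The 75th percentile shift, quantile normalization and lowess centring each added 1 lower member. At 2-fold, 10 members were lower (7 C/D, 2 H/ACA and 1 Y RNA) and 0 were higher, with 0 higher H/ACA snoRNAs. The median of all members ran from -0.24 to -0.12, the highest with probe sets of several symbols kept (21 lower and 3 higher of 112), and that of C/D snoRNAs from -0.35 to -0.23. Host genes had medians from 0.02 to 0.08 and U3 processome genes from 0.19 to 0.27. With no filter on dim genes, with a filter at the array median, with the brightest probe set and with each probe set by itself, 20 were lower and 2 higher, and without copies of multi-copy families 17 and 2. Centring on the median moved the median of all genes compared to 0.03. No paired analysis was possible because each group had 1 array. With 1 array per group leaving out a replicate could not be done, and 2 members were too dim to compare.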

Other observations

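Short RNAs outside the member rule also differed in size. The 5S ribosomal RNA gene n-R5s136 was at 9.36 on the Srf array and 11.51 on the EGFP array (4.42-fold lower). Its difference, -2.14, was the lowest of all 19261 genes compared. The RNA of RNase P, Rpph1, differed by -0.34 and its related genes Rprl2 and Rprl1 by -0.29 and 0.10, the RNA of telomerase, Terc, by -0.13, and Rn7sk, which restrains transcription elongation, by 0.06 at a signal of 13.53 on the Srf array. RefSeq classes 8 further genes with 1 symbol as snoRNA that the rule did not take. Of these, 6 were bright enough to be compared, 0 passed 1.5-fold, and their median was 0.08, from -0.41 for AF357425 to 0.38 for AF357399. Each of the 6 had a signal under 7.57 on both arrays, below the range in which lower members were found.

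Probe sets with several symbols of which at least 1 fits the rule numbered 60, with 32 different sets of symbols, and 29 of these sets also name another gene, often the host. Their median over the 30 compared was -0.01. The 9 probe sets for the U1 RNA genes Rnu1b1, Rnu1b2 and Rnu1b6 gave 10.09 on the Srf array and 10.50 on the EGFP array on average, a difference of -0.41. The 4 probe sets for the U3 RNA genes Rnu3b1 to Rnu3b4 gave 10.82 on the Srf array and 10.97 on the EGFP array, and the 2 for Snord1b and Snord1c gave -0.60 and -0.55, beside -0.62 for Snord1b's own. Of these 2, the probe set at -0.60 was past 1.5-fold and their mean, -0.58, was not. The 16 probe sets that name Gm26504, Snord116l1 and Snord116l2, copies of a snoRNA made chiefly in neurons, were dim and differed by 0.02 to 0.04. Snord32a, Snord33 and Snord34, which share the host Rpl13a with Snord35a, differed by -0.09, -0.09 and 0.13 in probe sets that also name Rpl13a, beside -0.36 for Snord35a.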
